A study of Homo sapiens with 12 samples.

Results

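The miR-506 to miR-514 family is a group of related microRNA precursors that lie together on the long arm of the human X chromosome. Its members were taken by gene name, as the rows named MIR506, MIR507, MIR508, MIR509-1, MIR509-2, MIR509-3, MIR510, MIR514A1, MIR514A2 and MIR514A3 in the GENCODE annotation. All 10 were present among the 1881 precursor rows of the small RNA count files, and 5 of them held a count in at least 1 library. The files came from a study of how melanoma cells become resistant to dabrafenib, an inhibitor of the mutant BRAF kinase. It sequenced small RNA from A375, an established BRAF-mutant melanoma cell line, and from A375-BIR, a derivative of A375 that the authors made resistant to BRAF inhibitors by keeping it under continuous selection. A375-BIR is therefore a selected population of a single parental line, and no other pair of lines was sequenced in these files. Each line was grown for 48 h with 0.1% DMSO (vehicle) or with 200 nM dabrafenib, in 3 cultures labelled as biological replicates. This gave 4 groups of 3 libraries, all grown in the same serum-supplemented medium. The libraries were shallow, with 35069.5 to 122792 expected counts over all precursors, so that 3 counts corresponded to between 24.4 and 85.5 CPM, counts scaled to a common library size.

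The precursors of this cluster are transcribed in the same direction and are cut to mature microRNAs of the usual length, which repress messages that pair with bases 2 to 8, the seed. The cluster expanded and diverged rapidly in primates, it is strongly expressed in testis and in the melanocyte lineage, and it has been described as favouring transformation of melanocytes and growth of melanoma cells. Within it, miR-514a is known to act on the message of NF1, a brake on RAS signalling, and has been linked to the response to BRAF inhibitors, whereas miR-506 is known mainly for restraining mesenchymal gene programmes in carcinoma.

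The mature sequences show why some members can be told apart by sequencing and others cannot. All 10 members were matched in the RefSeq table (GRCh38.p14), which gave 12 distinct mature sequences for them. The sequences below are written 5′ to 3′ with the seed in capitals, and all come from the minus strand of chromosome X. The first pair are the 3′ arms of MIR508 and of the MIR509 copies, the precursors that had more than 1 count, and their seeds shared the first 5 bases but differed after that.
hsa-miR-509-3p: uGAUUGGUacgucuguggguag
hsa-miR-508-3p: uGAUUGUAgccuuuuggaguaga
The 5′ arms of the same precursors follow, of which the 2 from MIR509 had an identical seed.
hsa-miR-509-5p: uACUGCAGacaguggcaauca
hsa-miR-509-3-5p: uACUGCAGacguggcaaucaug
hsa-miR-508-5p: uACUCCAGagggcgucacucaug
The last pair belong to MIR514A and MIR506, named above for their targets, which were at or near 0 here.
hsa-miR-514a-3p: aUUGACACuucugugaguaga
hsa-miR-506-3p: uAAGGCACccuucugaguaga
The miR-509-3p sequence was the same in MIR509-1, MIR509-2 and MIR509-3, so that a read of it belongs to all 3 copies alike. The miR-509-5p sequence was shared by MIR509-1 and MIR509-2, and MIR509-3 gives the distinct miR-509-3-5p. No mature microRNA of another gene in the table had the seed of miR-508-3p or miR-509-3p. The seed of the MIR509 5′ arms was shared with hsa-miR-4418 of MIR4418, a precursor without a count in any library.

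On the hg38 assembly the 10 members spanned 54.0 kb, from MIR506 at chrX:147230720-147230843 to MIR514A3 at chrX:147284641-147284728. MIR508 was at chrX:147236913-147237027. The copies MIR509-2 (chrX:147258760-147258850), MIR509-3 (chrX:147259652-147259726) and MIR509-1 (chrX:147260532-147260625) followed each other. No member overlapped an annotated exon of another gene. There were 6 members, the MIR509 copies and MIR508 among them, inside an intron of a long noncoding RNA annotated on the opposite strand, and 2 MIR514A copies in an intron of another on the same strand. The hairpin of MIR509-1 was 96.8% identical to that of MIR509-2 (91 of 94 aligned columns) and 79.8% to that of MIR509-3 (75 of 94). The annotated hairpins of MIR509-2 and MIR509-3 are 91 and 75 bases long, against 94 for MIR509-1. Every base of each therefore matched MIR509-1, and the unmatched columns were gaps. MIR508 and MIR509-1 were 64.4% identical.

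The count files carried this sharing of reads. MIR509-1 and MIR509-2 had equal values in 12 of 12 libraries, for example 30.33 each in A375 DMSO replicate 1, where MIR509-3 had 33.33. The sum of the 3 copies came to within 0.02 of a whole number in 12 of 12 libraries, as it does when each read is divided over the copies it matches. MIR509-3 exceeded MIR509-1 in 7 libraries, by at most 3 counts. The split among copies therefore held almost no separate information, and the 3 rows are summed below as MIR509, as are the MIR514A rows as MIR514A.

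Among the members, MIR509 held nearly all the counts. The 10 members together took 0.138% of all counts in the A375 DMSO group and 0.163% in A375 with dabrafenib, against 0.00485% and 0.0133% in A375-BIR. Summed over its 6 libraries, A375 had 566 counts of MIR509, and A375-BIR had 33 in its own 6. MIR508 followed with 50 counts in A375 and 3 in A375-BIR. MIR506 had 1 count, in A375 DMSO replicate 2, and MIR507, MIR510, MIR514A1, MIR514A2 and MIR514A3 were listed at 0 in all 12 libraries. MIR508 and MIR509 were thus the only members with more than 1 count, and the rest of the family cannot be compared between the lines at this depth.

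**Figure D1:**
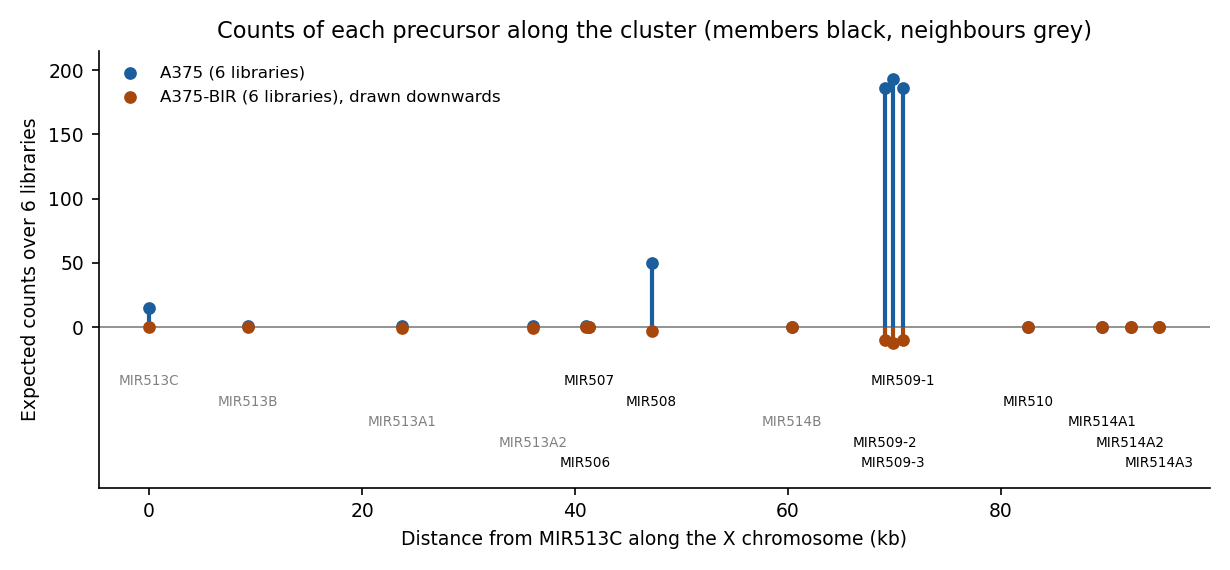
Expected counts of each precursor of the cluster (y axis, summed over 6 libraries, A375 upwards and A375-BIR downwards) against its distance from MIR513C in kb (x axis). The 3 MIR509 copies at 69.1, 69.9 and 70.8 kb and MIR508 at 47.2 kb stand out in A375, and the precursors from 82.6 kb onwards are at 0 in both lines.

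MIR509 separated the lines in both treatments. In A375 with DMSO its counts were 94, 157 and 107, which corresponded to 1111, 1175 and 1112 CPM on library sizes scaled by the trimmed mean of M values (TMM). In A375-BIR with DMSO the counts were 4, 7 and 4, or 35.6, 54.3 and 27.2 CPM. All A375 values lay above all A375-BIR values, with the lowest of the first 20.5 times the highest of the second. Such separation in this direction was seen for 26.6% of the 173 tested rows. With dabrafenib, A375 had 66, 71 and 71 counts, or 1711, 2004 and 2333 CPM. A375-BIR had 7, 5 and 6 counts, or 191, 76.0 and 119.7 CPM. The groups again did not overlap, as for 23.7% of tested rows in that comparison.

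In the fit across all rows, MIR509 was 28.1-fold higher in A375 than in A375-BIR in DMSO (95% interval 18.3 to 43.4), a log2 fold change of 4.81 ± 0.29 (SE, n = 3 per group). This interval was narrower than counting error alone allows. The 358 and 15 counts gave a ratio of 29.4 with a 95% counting interval of 17.6 to 53.1. DESeq2's Wald test gave 5.07 with a larger SE of 0.45. The edgeR quasi-likelihood adjusted p was 5.11e-09, adjusted over the 173 rows for false discovery by Benjamini and Hochberg's method. MIR509 was the 1 member row of 6 that passed the filter on low counts, and it was called, where 15.0% of tested rows were called higher in A375. It reached the filter's minimum of 145.8 CPM in 7 libraries, the 6 of A375 and a single A375-BIR library, so that it entered the fit through the line in which it was high. In dabrafenib the difference was 16.5-fold (95% interval 10.7 to 25.5), a log2 fold change of 4.05 ± 0.29 with an edgeR adjusted p of 4.22e-08. The 208 and 18 counts gave a ratio of 16.9 there, with a wider 95% counting interval of 10.4 to 29.1. The member row called there compares with 23.1% of rows called higher in A375. With the treatments averaged MIR509 differed by 4.43 ± 0.21 in log2 and had an edgeR adjusted p of 1.32e-10, in a comparison in which 24.9% of rows were called higher in A375. The line difference was called in all 20 alternative settings with copies summed in DMSO (4.61 to 5.24), all 20 in dabrafenib (3.58 to 4.36) and all 19 over both treatments (4.20 to 4.67). The median log2 fold change of all 173 rows over both treatments was -0.14. Among them MIR509 had the highest log2 fold change in DMSO and over both treatments, and ranked 2 in dabrafenib, after MIR204. As these were bulk cultures, fewer cells with the microRNA and less of it per cell cannot be told apart.

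**Figure D2:**
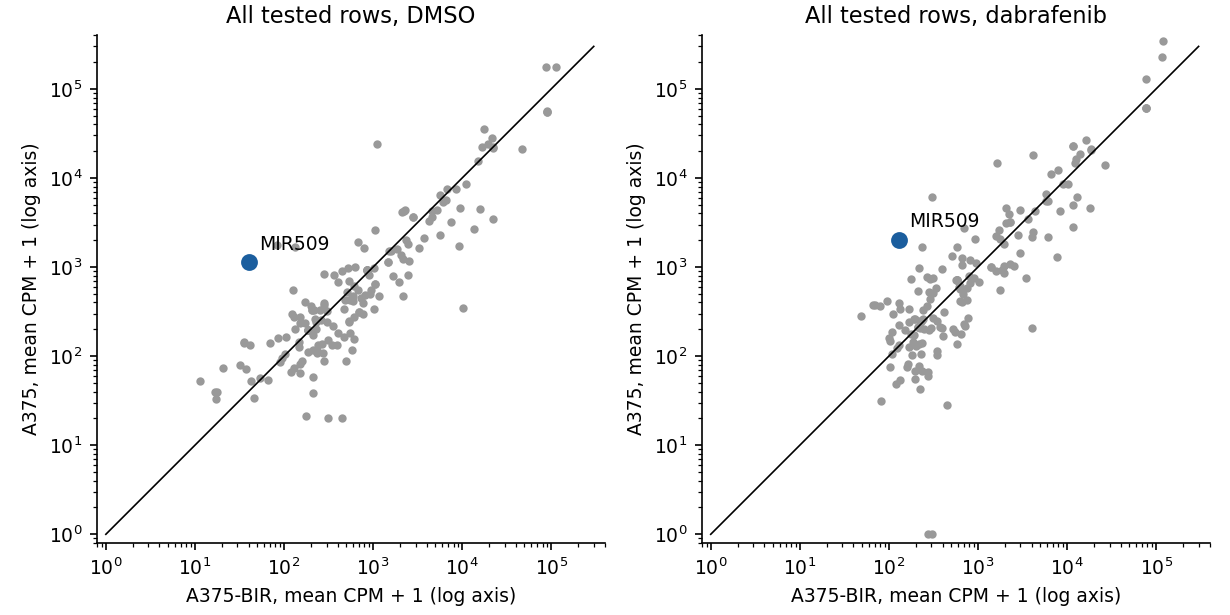
Mean CPM + 1 of the 173 tested rows in A375 (y axis) against A375-BIR (x axis), both on log axes, in DMSO (left) and dabrafenib (right), with the line of equal levels. MIR509 (blue) lies far above the line in both panels, at 1133 against 39.0 CPM in DMSO and 2016 against 129 CPM in dabrafenib.

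The change was also one of rank. MIR509 stood at place 53 of the 173 tested rows by mean CPM in A375 with DMSO, well above the median row at 423 CPM. In A375-BIR with DMSO it fell to place 164, where the median row had 537 CPM. With dabrafenib its places were 48 in A375 and 156 in A375-BIR. For scale, MIRLET7B of the let-7 family took 16.8% of the counts summed over all 12 libraries, with group means from 113795 CPM in A375-BIR with DMSO to 343790 CPM in A375 with dabrafenib.

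MIR508, whose 3′ arm shares the first bases of its seed with miR-509-3p, showed the same division at lower counts. Its counts were 8, 16 and 12 in A375 with DMSO and 5, 5 and 4 in A375 with dabrafenib. In A375-BIR they were 1, 1 and 0 with DMSO and 0, 0 and 1 with dabrafenib. Its range was 94.6 to 141 CPM in A375 and 0 to 19.9 CPM in A375-BIR, without overlap. Among the 173 tested rows such separation was seen for 26.6% in DMSO and 23.7% in dabrafenib. The share was not counted for both treatments together or for rows at counts this low. MIR508 did not reach the filter's minimum in any library, its highest value being 138 CPM of total counts, and was tested on its own. The difference of mean log2(CPM + 1) was 5.14, with p = 0.005 in a two-sided exact permutation test that exchanged line labels within each treatment (400 arrangements, 0.005 being the smallest p they can give). The size of this difference depends on the added constant, as A375-BIR was at 0 in 3 of 6 libraries, and was 5.67 with 0.5 added and 3.82 with 5 added. As the lines did not overlap, the exact permutation p with all libraries was at its floor and cannot register such changes. With 1 library left out it was 0.005 to 0.01, at the same floor of 0.005. The value was 0.01 without A375 dabrafenib replicate 1, 2 or 3. From the 50 and 3 counts the ratio was 21.5 with a 95% counting interval of 6.95 to 108, which covers counting error only.

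With a lower filter of 1 CPM in at least 3 libraries, MIR508 entered the fit across 536 rows. Its log2 fold change was 4.08 ± 0.89 in DMSO, and the edgeR adjusted p was 5.62e-05 (5.62e-05 to 0.000959 over the settings in which it was tested). In dabrafenib it was 3.82 ± 1.16 with an edgeR adjusted p of 0.00848 (up to 0.0131 with no filter). Over both treatments it was 3.95 ± 0.72, with an edgeR adjusted p of 6.12e-07 (up to 9.08e-07 with no filter). Both MIR508 and MIR509 were called under this filter, where 6.72% of rows were called higher in A375 in DMSO, 6.34% in dabrafenib and 8.96% over both treatments.

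The proportion of MIR508 to MIR509 was not shown to differ between the lines or to be the same. MIR508 made up 8.10% of the member counts in A375 (95% Clopper-Pearson interval 6.07 to 10.5) and 8.33% in A375-BIR (1.75 to 22.5). The second interval rests on 36 counts and is too wide to show that the proportion was equal. Within A375 the share was 9.11% in DMSO (6.47 to 12.4) and 6.31% in dabrafenib (3.49 to 10.4), and the intervals overlapped. Single A375 libraries ranged from 7.84% to 10.1% in DMSO and from 5.33% to 7.04% in dabrafenib, without overlap. Whether the share differed between the treatments was not tested. In A375-BIR it was 11.8% in DMSO (1.46 to 36.4) and 5.26% in dabrafenib (0.133 to 26), and single libraries there ranged from 0% to 20%.

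**Figure D3:**
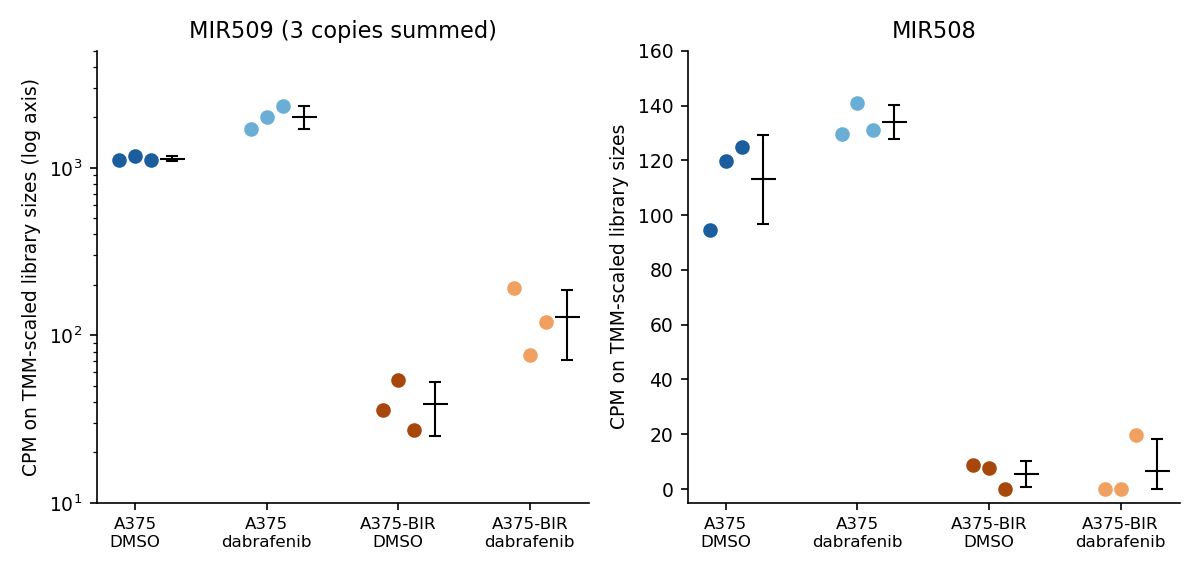
CPM on TMM-scaled library sizes of MIR509 (left, log axis, 3 copies summed) and MIR508 (right, linear axis) in each library (coloured points) with mean and SD of each group of 3 (black, the bar cut at 0). The A375 points lie at 1111 to 2333 CPM for MIR509 and at 94.6 to 141 CPM for MIR508, above every A375-BIR point.

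The effect of the drug on MIR509 was smaller than the difference between the lines. In order of level the groups were A375 with dabrafenib (2016 ± 311 CPM), A375 with DMSO (1133 ± 36.9), A375-BIR with dabrafenib (129 ± 57.8) and A375-BIR with DMSO (39.0 ± 13.8), each mean ± SD with n = 3. No neighbours in this order overlapped, on TMM-scaled sizes or on total counts. Libraries with dabrafenib lay above those with DMSO for 26.6% of tested rows in A375 and for 17.9% in A375-BIR. Depth followed the drug, with 35069.5 to 59898.6 expected counts in dabrafenib libraries and 77264.3 to 122792 in DMSO libraries. Before scaling, the MIR509 counts of A375-BIR overlapped, at 7, 5 and 6 with dabrafenib and 4, 7 and 4 with DMSO.

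In A375 the log2 fold change of MIR509 for dabrafenib over DMSO was 0.83 ± 0.21, with an edgeR adjusted p of 0.00946 (0.00545 to 0.546 over the alternatives). The 1 member row tested was called, in a comparison in which 17.3% of rows were called higher with dabrafenib. The call depended on how libraries were scaled. On total counts alone the log2 fold change was 0.32 with an edgeR adjusted p of 0.251. That scaling moved the median row by -0.51 in the same comparison. The 3 libraries of A375 with dabrafenib had TMM factors of 0.688 to 0.824, where the other 9 had 1.048 to 1.195. In those 3 libraries 20.9% to 26.3% of counts fell on 17 rows that share sequence with ribosomal RNA, against 3.22% to 5.59% in A375 with DMSO. The share rose in A375-BIR as well, from 2.65% to 4.57% with DMSO to 14.4% to 16.9% with dabrafenib, at TMM factors of 1.048 to 1.100 in the latter. This share therefore moved with the drug in both lines. With these rows left out the log2 fold change of MIR509 in A375 was 0.66 and its edgeR adjusted p 0.0365, and in A375-BIR it was 1.61 with an edgeR adjusted p of 0.0218. In A375 it also missed the threshold with the filter at 1 CPM (log2 fold change 0.41, edgeR adjusted p 0.352), with no filter (0.40, 0.546) and in DESeq2's Wald test (0.62, 0.0896).

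In A375-BIR the log2 fold change of MIR509 for dabrafenib over DMSO was 1.59 ± 0.41 with an edgeR adjusted p of 0.0139, where 13.9% of rows were called higher with dabrafenib. Over the alternatives the edgeR or DESeq2 adjusted p was 0.0111 to 0.0923 with copies summed and up to 0.122 with copies apart. The row entered this test only through A375, for with the A375-BIR groups alone no member passed the filter. The test rested on 18 counts with dabrafenib and 15 with DMSO in libraries of different depth. The call was lost without A375-BIR DMSO replicate 3 (1.28, edgeR adjusted p 0.0516), without A375-BIR dabrafenib replicate 1 (1.32, 0.0923) or without A375-BIR dabrafenib replicate 3 (1.49, 0.0538). Across rows, A375-BIR DMSO replicate 3 stood apart from its group. Its chi-square per degree of freedom was 29.4 and 32.1 against replicates 1 and 2, which gave 2.51 against each other. The call was also lost with the 1 CPM filter (1.36, 0.0598) and with no filter (1.35, 0.0893). With the copies as separate rows MIR509-3 had a log2 fold change of 1.71 (edgeR adjusted p 0.108) and MIR509-1 and MIR509-2 had 1.77 (0.122 each), so that the call was lost at slightly larger fold changes. All of these values kept the direction.

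The response to dabrafenib was not shown to differ between the lines. The difference in log2 fold change, A375 minus A375-BIR, was -0.77 for MIR509 with a 95% interval of -1.79 to 0.25. Its unadjusted edgeR p was 0.123 and its edgeR adjusted p 0.417 (0.142 to 0.995 over the alternatives). Of the member rows 0 were called by edgeR, 0 by DESeq2's Wald test and 0 at an unadjusted p under 0.05 in either, in a comparison in which 3.47% of the 173 rows were called in either direction and 35 rows had an unadjusted p under 0.05. On total counts alone the difference was -1.23, with an unadjusted edgeR p of 0.0175 and an edgeR adjusted p of 0.142. MIR508 gave no clear response either. Its mean in A375 was 113 CPM with DMSO and 134 CPM with dabrafenib on TMM-scaled sizes, but 124 and 104 CPM on total counts, so that the direction turned with the scaling. With the filter at 1 CPM its log2 fold change in A375 was -0.18 ± 0.69 with an edgeR adjusted p of 0.963 (up to 1 with no filter).

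**Figure D4:**
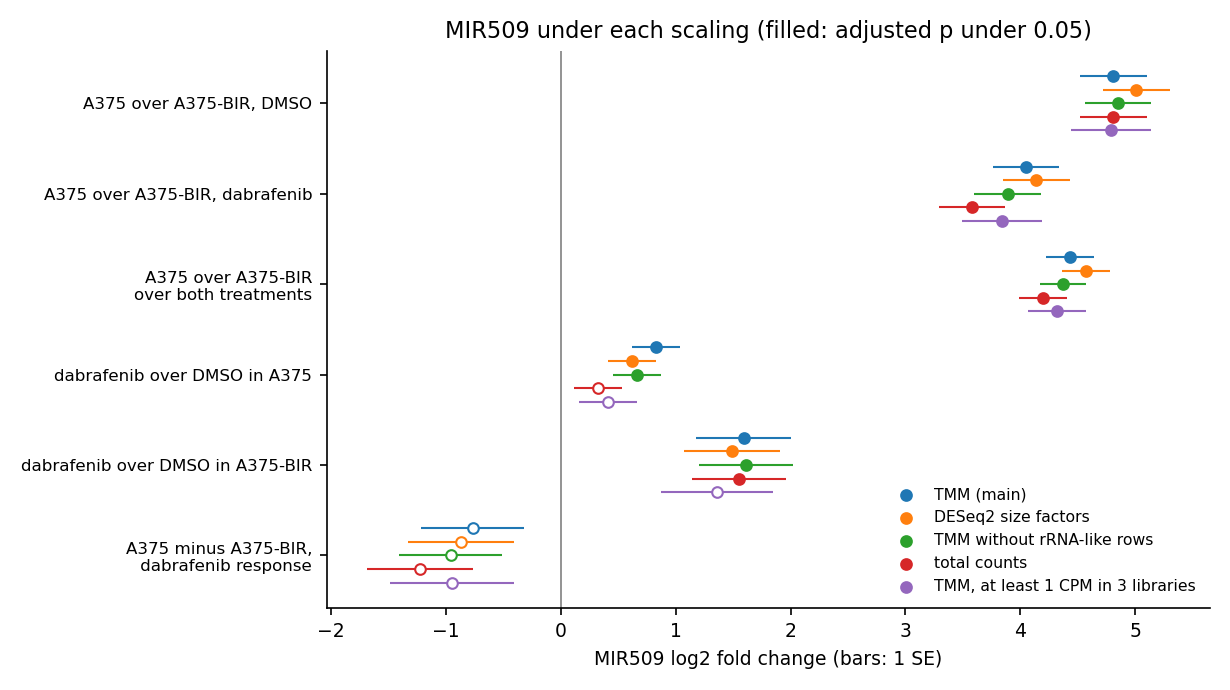
Log2 fold change of MIR509 (x axis, bars 1 SE) in the 6 comparisons (y axis) under 5 ways of scaling or filtering, with filled points where the adjusted p is under 0.05. The 3 comparisons between lines stay between 3.58 and 5.01 and are filled throughout, whereas the response in A375 ranges from 0.32 to 0.83 and is filled in 3 of 5.

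Members that were not detected can be bounded. Over the 421958 counts of the 6 A375 libraries, a count of 0 allows up to 3 counts, which is 7.16 CPM on TMM-scaled sizes, or 0.53% of the MIR509 counts of that line. This limit held for MIR507, MIR510 and the summed MIR514A row alike. In A375-BIR the limit was 5.55 CPM. For MIR514A, the member linked to NF1, neither line therefore came near the level of MIR509 in A375, and no fold change between the lines can be given. MIR506 was at 7.49 CPM in A375 DMSO replicate 2 and at 0 in the other 11 libraries, and a single count cannot be compared between the lines.

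There are 5 more precursors in the cluster, MIR514B between the members and the MIR513 genes beyond MIR506. MIR513C had 8, 3 and 3 counts in A375 with DMSO, 0, 1 and 0 with dabrafenib, and 0 in the 6 A375-BIR libraries. In DMSO the level observed in A375 was 5.75 times a floor of 3 counts over the A375-BIR group, on TMM-scaled sizes. This ratio takes the A375 counts as exact, so it is not a lower limit that covers their counting error. Of the 14 counts in that group of A375, 8 came from replicate 1, and without A375 DMSO replicate 1 the ratio fell to 3.37 (3.37 to 7.86 with any 1 library left out). With dabrafenib both lines were under the floor. Over both treatments the two-sided exact permutation test gave p = 0.05 for MIR513C (400 arrangements), and 0.02 without A375 dabrafenib replicate 1 or without A375 dabrafenib replicate 3. With the filter at 1 CPM, which MIR513C passed only through A375, its edgeR adjusted p was 0.00478 in DMSO (up to 0.00868 with no filter), 0.515 in dabrafenib (up to 0.697) and 0.0551 over both treatments (up to 0.0874). As A375-BIR was at 0 throughout, these fits give no size for the difference. MIR513A1 and MIR513A2, which shared their reads, had 1.5 counts each, MIR513B had 1 and MIR514B had 0. The miR-888 cluster, a testis and epididymis group elsewhere on the same arm, had no count in any of its 7 precursors. Detection along the cluster was thus discontinuous, with MIR514B at 0 between MIR508 and the MIR509 copies.

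The other tested precursors of the X chromosome did not share the size of the difference. Of 96 listed outside both clusters, 51 had a count and 12 were tested. Over both treatments 4 were called higher and 5 lower in A375, with a median log2 fold change of -0.30. With the rows resembling ribosomal RNA left out, 11 were tested, of which 3 were called higher and 5 lower. Among all 173 tested rows 43 were called higher and 59 lower, with a median of -0.14. With the filter at 1 CPM 41 of these precursors were tested, of which 7 were called higher and 8 lower, and with no filter the counts called were again 7 and 8. The 3 lowest among those called were MIR222 at -1.95 ± 0.11, MIR424 at -1.83 ± 0.29 and MIR106A at -1.33 ± 0.50. The 3 highest were MIR532 at 1.60 ± 0.41, MIR98 at 1.49 ± 0.21 and MIRLET7F2 at 0.77 ± 0.12. The tested precursor nearest to MIR509-1 was MIR767, at 5.13 Mb, and its log2 fold change was -0.58 ± 0.15 with an edgeR adjusted p of 0.00343.

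**Figure D5:**
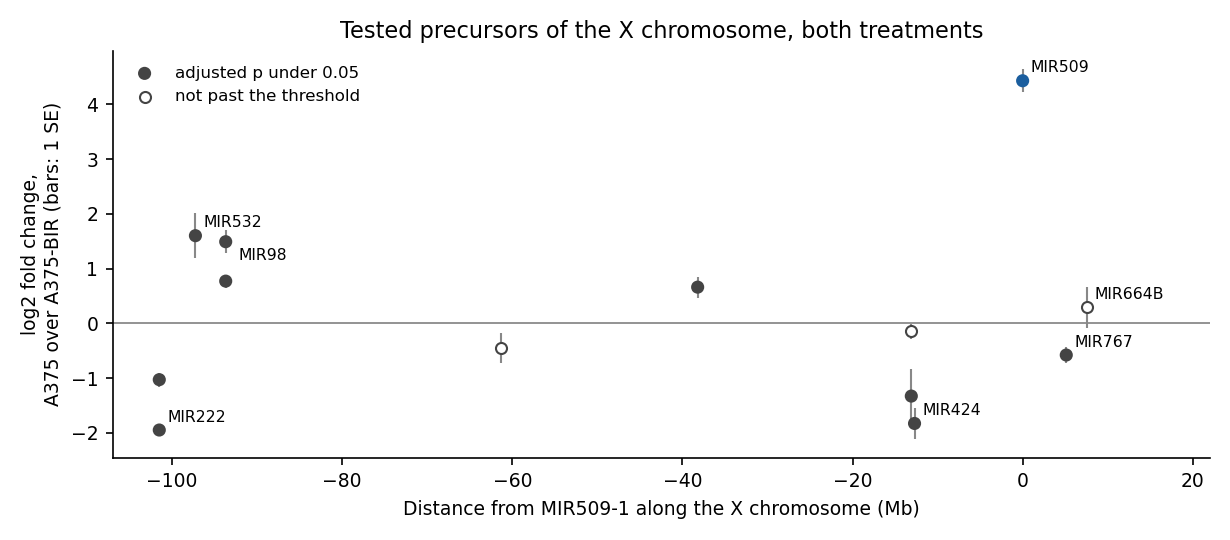
Log2 fold change of A375 over A375-BIR over both treatments (y axis, bars 1 SE) of the 12 other tested precursors of the X chromosome and MIR509 against the distance from MIR509-1 in Mb (x axis). MIR509 stands at 4.43, and the others lie between -1.95 and 1.60.

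Precursors known from melanocytes and melanoma moved in both directions between the lines. Of 18 listed, 15 were tested, of which 3 were called higher in A375 over both treatments and 10 lower, with a median log2 fold change of -1.39. In the same comparison 43 of all 173 rows were higher and 59 lower. The 3 that were higher, as MIR509 was, were MIR204, MIR146A and MIR148A. MIR204, a relative of the pigment cell microRNA miR-211, had a log2 fold change of 4.0. MIR146A, an inhibitor of inflammatory signalling, had 3.8, and MIR148A, which acts on the message of the melanocyte factor MITF, had 2.10. Those that were lower included MIR31, at -4.55 ± 0.15, and MIR221 and MIR222, which act on KIT. MIR211 itself, transcribed within a gene that depends on MITF, did not pass the filter. It had 7 counts with DMSO and 18 with dabrafenib in A375, and 8 and 11 in A375-BIR. With the filter at 1 CPM its log2 fold change between the lines was 0.06 ± 0.90 in DMSO and 1.06 ± 0.78 in dabrafenib, and it was called in neither (edgeR adjusted p 0.977 and 0.438, and 1 and 0.63 with no filter).

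The same 3 precursors were the most alike to MIR509 across the 12 libraries. Pearson's r of log2 CPM with MIR509 was 0.97 for MIR148A, 0.96 for MIR204 and 0.95 for MIR146A, and next came MIRLET7D at 0.91 and MIRLET7F1 at 0.90. These values describe libraries that share the split into 2 lines, and all 5 rows were called higher in A375. Within the 6 A375 libraries r was 0.83 for MIR204 and 0.73 for MIR148A, but -0.76 for MIR146A. Within the 6 A375-BIR libraries it was 0.67, 0.71 and 0.63 for the same rows in the same order. By Spearman's measure, MIR148A and MIR204 were again among the 5 most alike and the other 3 were not.

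Markers of other cell types differed in level. MIR122 of liver and MIR451A of blood were at 0 in all libraries, as were MIR203A and MIR429 of epithelium and MIR214 of fibroblasts. The 7 epithelial precursors summed to 69.3 CPM of total counts in A375 with DMSO and 82.5 CPM in A375-BIR with DMSO, and to 146 and 125 CPM with dabrafenib, with MIR205 the most abundant. The 5 blood precursors, led by MIR150, summed with DMSO to 74.4 CPM in A375, against 31.3 CPM for A375-BIR. With dabrafenib they summed to 135 and 234 CPM, so that the order of the lines turned and the sum rose with the drug in both. MIR126 of endothelium had 2 counts in A375 and 18 in A375-BIR with DMSO (8.63 and 51.1 CPM), and 3 and 2 with dabrafenib. The 9 fibroblast and muscle precursors, led by MIR143, summed to 706 and 343 CPM with DMSO and to 1062 and 1020 CPM with dabrafenib. MIR143 was not called between the lines (0.12 ± 0.29 over both treatments, edgeR adjusted p 0.716). In the same list MIR199A1 (2.19 ± 0.36, edgeR adjusted p 0.000105) and MIR199A2 (2.17 ± 0.37, 0.000114) were called higher in A375, as MIR509 was. Whether these markers bear on the MIR509 differences was not tested. Of the 11 melanocyte precursors, which include members of the family, 8 had a count, MIR146A held 83.1% of the sum, and the MIR514A copies were at 0.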

How the data were processed

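The values are expected counts per microRNA precursor, made by the authors with RSEM 1.2.25 before the files were deposited. The sample records name hg38. The authors' methods, written for their mRNA and small RNA data together, describe trimming of adapters and removal of reads from ribosomal RNA and phiX. The authors compared the lines with edgeR under R 4.0.2. Libraries came from a Lexogen small RNA kit and were amplified by PCR. No molecular tags (UMIs) are described, so counting intervals cover counting error only. Ensembl identifiers were matched to GENCODE 44: 1877 of 1881 rows matched and 1852 had a gene name. Members are the rows whose name is on the list, and copies that share reads were summed. The members and the comparison lists were chosen with earlier results of these data known.

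Expected counts were rounded to whole numbers, filtered with filterByExpr (173 rows kept), scaled by TMM and fitted with the edgeR 4.0.16 quasi-likelihood model on 4 groups in R 4.3.3. Rows were called at an adjusted p under 0.05. DESeq2 1.42.0, total-count scaling, DESeq2 size factors, other filters, separate copies, removal of rows resembling ribosomal RNA, only the groups compared, a replicate block and omission of each library were alternatives. MIR508 and MIR513C, below the filter, were tested by exact permutation within treatment in Python 3.11.15. Same-number replicates were checked for pairing: only the DMSO groups of the 2 lines had all correlations over 0.1 (0.11, 0.22 and 0.30), so the main model has no pairing. Rows give precursors, so the arm of a mature microRNA cannot be read from them.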

Additional observations from a re-analysis of the deposited data

Results flagged for a closer look

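MIR146A responded to dabrafenib differently in the lines. Its log2 fold change for dabrafenib over DMSO was -0.7 in A375 (SE 0.19, edgeR adjusted p 0.0141) and 0.57 in A375-BIR (SE 0.21, edgeR adjusted p 0.0682). The difference between the lines was -1.27 (SE 0.28, edgeR adjusted p 0.0208). Its cause was not tested.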

How the results depend on the processing

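Between the lines, 1 member (MIR509) was called in DMSO, in dabrafenib and over both treatments. With the filter at 1 CPM in 3 libraries it was 2 in each, MIR508 being added. With no filter it was also 2 in each, and with only the groups compared it was 2 in DMSO. Leaving out 1 library kept the value at 1.

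For dabrafenib over DMSO in A375, 1 member was called. It was 0 with the filter at 1 CPM, with no filter, on total counts alone and in DESeq2's Wald test. Leaving out 1 library kept it at 1.

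For dabrafenib over DMSO in A375-BIR, 1 member was called. It was 0 with the filter at 1 CPM, with no filter, with copies as separate rows and with only the groups compared, where no member passed the filter. Leaving out 1 library gave 0 to 1. The value was 0 without A375-BIR DMSO replicate 3, A375-BIR dabrafenib replicate 1 or A375-BIR dabrafenib replicate 3, and 1 without A375-BIR DMSO replicate 1.

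The difference in response was called for 0 members in every setting. With a replicate block the values were 1 for each of the 5 other comparisons and 0 for the difference. The exact permutation p of MIR508 was 0.005 to 0.01.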
